A study of Mus musculus with 3 samples.

Results

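The genes that encode LSD1, its relative LSD2, the autosomal Kdm5 demethylases and the CoREST scaffold proteins were examined for Setd1a peaks. These 7 genes, *Kdm1a*, *Kdm1b*, *Kdm5a*, *Kdm5b*, *Rcor1*, *Rcor2* and *Rcor3*, were taken by name from the 21938 protein-coding genes that GENCODE M21 places on 21 chromosomes of mm10. All 7 were found in the annotation. Setd1a binding had been mapped by CUT & RUN, in which an antibody on permeabilized cells guides a nuclease that cuts out the DNA next to the bound protein. The cells were adult NSCs (labelled neural progenitor cells) from the dentate gyrus of Hopx-CreERT2::Setd1afl/fl::H2B-GFP mice aged 7 to 8 weeks, an inducible Cre line whose recombinase is driven by *Hopx*. Their genotype is labelled WT, and they were collected on day 5 of culture in quiescence medium without EGF, in which BMP4 and FGF2 were each at 20 ng/ml. There were 2 libraries with the Setd1a antibody and 1 with rabbit IgG, all from cells of the same line, medium and day.

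The deposited list holds 6969 peaks found in both Setd1a replicates, 6950 of them on the 21 chromosomes, and gives a position for each but no height. Each value below is therefore 1 measurement without a spread between replicates. Library depth is unknown, so a gene without a peak is only a gene absent from this list. No marker level of the cultures and no IgG signal was analysed here.

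Setd1a is a methyltransferase that adds methyl groups to lysine 4 of histone H3 (H3K4), and the demethylases encoded by these genes act on the same residue in the opposite direction. LSD1 and LSD2 (*Kdm1a* and *Kdm1b*) are flavin-dependent oxidases that remove mono- and dimethylation, while Kdm5a and Kdm5b are Jumonji (JmjC) enzymes that remove tri- and dimethylation. CoREST proteins (*Rcor1*, *Rcor2* and *Rcor3*) tether LSD1 to nucleosomes and to histone deacetylases, and with the repressor REST this complex is known for silencing neuronal genes outside neurons. The study also examined inhibition of LSD1 in *Setd1a*-deficient NSCs, and the peak list gives the Setd1a intervals detected at the genes for LSD1 and its relatives.

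A Setd1a peak lay within 3000 bp of a transcription start site (TSS), here called a promoter peak, at 3 of the 7 genes: *Kdm1b*, *Kdm5a* and *Rcor3*. The same held for 5036 of the 21938 protein-coding genes, or 23.0% (95% Wilson confidence interval 22.4% to 23.5%, counting error over genes only). *Kdm1a* had no promoter peak but carried 1 peak in its first intron, while *Kdm5b*, *Rcor1* and *Rcor2* had no peak near a TSS or in the gene body. A gene-body peak over 3000 bp from every TSS of the gene was thus present at 1 of 7 members, against 4.50% of all protein-coding genes. Each of the 3 functional classes was split, with LSD2 but not LSD1, Kdm5a but not Kdm5b, and *Rcor3* but neither *Rcor1* nor *Rcor2* having a promoter peak.

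The sequences under the peaks of *Kdm1b*, *Rcor3* and *Kdm1a* are given because they show how unlike these intervals are, and the promoters of *Kdm1a* and *Rcor1* because no peak covered them. All are from mm10 (GRCm38), on the strand of the gene and 5′ to 3′. The promoters are RefSeq windows (GRCm38.p6) from 250 bp before to 50 bp after a start site, and 6 of the 7 genes matched an entry. That start can differ from the 5′ end of the RefSeq gene span, as it does at *Kdm1a*. Capitals mark matches, on either strand, to 7 short motifs: the GC box GGGCGG, the ETS core CCGGAA, the cAMP response element TGACGTCA, the NRF1 core GCATGCGC, the CCAAT box CCAAT, the E-box CACGTG and the YY1 core AAGATGGC. A match is a match of letters and not a binding site. None of the marked matches overlapped another motif.
Kdm1b, promoter peak, chr13:47043255-47043519, plus strand, 265 bp: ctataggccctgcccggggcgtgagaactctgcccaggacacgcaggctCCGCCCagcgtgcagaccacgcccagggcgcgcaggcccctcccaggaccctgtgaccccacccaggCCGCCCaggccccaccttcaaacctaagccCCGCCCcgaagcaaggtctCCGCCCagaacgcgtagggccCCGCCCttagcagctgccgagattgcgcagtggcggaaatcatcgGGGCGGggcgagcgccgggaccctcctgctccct
Rcor3, promoter peak, chr1:192138162-192138454, minus strand, 293 bp: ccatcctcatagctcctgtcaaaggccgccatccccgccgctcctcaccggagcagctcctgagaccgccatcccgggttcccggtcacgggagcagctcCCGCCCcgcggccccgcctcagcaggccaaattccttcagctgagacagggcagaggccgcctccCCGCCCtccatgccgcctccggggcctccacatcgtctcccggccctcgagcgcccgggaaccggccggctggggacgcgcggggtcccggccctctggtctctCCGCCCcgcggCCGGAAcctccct
Kdm1a, central 300 bp of the intronic peak, chr4:136598343-136598642, minus strand: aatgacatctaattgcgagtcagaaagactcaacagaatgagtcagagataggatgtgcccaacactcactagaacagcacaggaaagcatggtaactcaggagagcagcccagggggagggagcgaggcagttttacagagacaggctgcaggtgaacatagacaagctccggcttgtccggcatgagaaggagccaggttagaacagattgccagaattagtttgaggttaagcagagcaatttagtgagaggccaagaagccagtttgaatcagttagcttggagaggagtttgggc
Kdm1a, RefSeq promoter, chr4:136602674-136602973, minus strand, 300 bp: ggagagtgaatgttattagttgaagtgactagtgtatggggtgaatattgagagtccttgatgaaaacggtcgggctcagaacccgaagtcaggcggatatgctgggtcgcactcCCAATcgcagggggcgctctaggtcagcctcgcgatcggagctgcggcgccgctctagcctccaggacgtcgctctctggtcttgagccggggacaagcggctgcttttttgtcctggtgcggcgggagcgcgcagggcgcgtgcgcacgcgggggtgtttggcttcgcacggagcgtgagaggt
Rcor1, RefSeq promoter, chr12:111039117-111039416, plus strand, 300 bp: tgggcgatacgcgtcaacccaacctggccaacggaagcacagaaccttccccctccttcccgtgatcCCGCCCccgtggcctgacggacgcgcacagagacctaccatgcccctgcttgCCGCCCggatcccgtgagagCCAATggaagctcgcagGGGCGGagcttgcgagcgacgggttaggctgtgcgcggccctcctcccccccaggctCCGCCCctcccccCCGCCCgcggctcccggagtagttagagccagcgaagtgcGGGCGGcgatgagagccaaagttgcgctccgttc

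*Kdm1a* (ENSMUSG00000036940, chr4:136550540-136602723, minus strand) encodes LSD1, and its only peak was intronic. The peak spanned chr4:136598340-136598645, 306 bp in width, and lay 4078 to 4383 bp downstream of the TSS of the principal transcript. It fell wholly in intron 1 of the 3 coding transcripts that start upstream of it and touched no exon. The nearest of the 9 TSSs of *Kdm1a* lay 3663 bp upstream of the peak, and the next TSS inside the gene was 21182 bp beyond it. The peak thus lay past the cluster of upstream starts and far from the internal ones. Among the 16902 protein-coding genes without a promoter peak, 4.11% had a gene-body peak. The nearest peak lay over 3000 and up to 5000 bp from a TSS in 2.01% of them. Genes of like length or promoter CpG content were not compared apart. Over all these genes such a placement was uncommon. It was not particular to *Kdm1a*, since *Kdm3b*, a gene for a demethylase of histone H3 outside H3K4, also had no promoter peak, 1 gene-body peak and its nearest peak 4185 bp from a TSS. Only the widest window tried, 5000 bp, placed this peak at the *Kdm1a* promoter.

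In composition the *Kdm1a* intronic peak was like the peaks away from promoters. Its GC content was 49.67%, against a median of 49.24% (quartiles 45.14% and 53.74%) in the 2061 peaks over 3000 bp from any TSS and 62.25% in the 4889 promoter peaks. It held 5 CpG dinucleotides, an observed to expected CpG ratio of 0.289, where the medians were 0.2 for peaks away from promoters and 0.791 for promoter peaks. Repeat-masked bases made up 47.4% of it, a larger share than in 95% of the peaks away from promoters, whose median was 7.77%. None of the 7 motifs occurred in its central 300 bp. Repeats can lower the mappability of reads, and their part in this peak was not tested.

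The promoter of *Kdm1a* itself was CpG-rich. In the 1000 bp around the principal TSS the GC content was 65.9% and the CpG ratio 0.952, above 95.5% of protein-coding genes. The nearest other peak lay 287496 bp from the intronic one, 99 bp from a TSS of *Hnrnpr*, a gene for an RNA-binding protein. On the other side the closest peak, at *Zbtb40*, was 445512 bp from the gene. Besides *Kdm1a*, 11 coding genes lay between the *Hnrnpr* and *Zbtb40* peaks, *Hnrnpr* and those for the Eph receptors *Ephb2* and *Epha8* among them. Within 500 kb of the principal TSS of *Kdm1a* there were 6 peaks, the intronic one included, against a median of 4 over protein-coding genes. The intronic peak was the only one in the 737391 bp between the *Hnrnpr* and *Zbtb40* peaks.

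*Kdm1b* (ENSMUSG00000038080, chr13:47043499-47085279, plus strand), which encodes LSD2, had a promoter peak at chr13:47043255-47043519. It was 265 bp wide and reached from 244 bp upstream to 20 bp downstream of the principal TSS, covering 21 bp of exon 1, all of it outside the coding sequence. Only 7.87% of promoter peaks were narrower. A TSS of *Tpmt*, the gene for thiopurine methyltransferase, lay inside the same interval on the opposite strand, at position 47043343. It was nearer the peak midpoint than the GENCODE TSS of *Kdm1b*. The 5′ end of the RefSeq gene span of *Kdm1b*, at position 47043373, was nearer the midpoint than this *Tpmt* TSS. With each peak given to its nearest GENCODE TSS alone, this peak counted for *Tpmt* and not for *Kdm1b*. The position of the interval could not tell the paired genes apart.

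The sequence of the *Kdm1b* peak held 6 matches to the GC box in 265 bp and none to the other motifs. A GC box occurred in the central 300 bp of 59.9% of promoter peaks, in 8.69% of other peaks and in 35.7% of the 32851 RefSeq promoters. The GC content of the *Kdm1b* peak was 71.7%, higher than in 87.3% of promoter peaks. Its CpG ratio of 0.695, with 23 CpG dinucleotides, was higher than in only 33.6% of them. The interval was thus GC-rich without being unusually CpG-rich for a promoter peak.

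**Figure D1:**
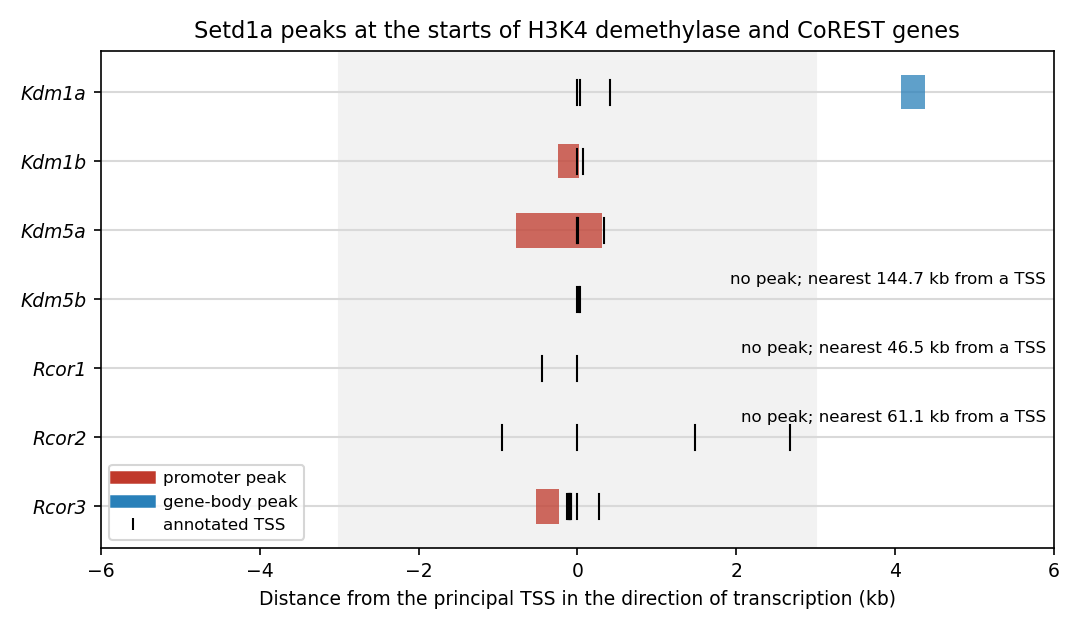
Position of Setd1a peaks (red, promoter peaks; blue, gene-body peak) at the 7 genes, on an axis of distance in kb from the principal TSS in the direction of transcription; ticks are annotated TSSs and grey marks the 3000 bp promoter window. The peaks of *Kdm1b* and *Kdm5a* cover the principal TSS, that of *Rcor3* lies upstream of all its TSSs, and that of *Kdm1a* begins 4078 bp downstream.

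*Kdm5a* (ENSMUSG00000030180, chr6:120364124-120444574, plus strand), which encodes a demethylase of trimethylated H3K4 first described as a partner of the retinoblastoma protein, had the widest peak of the group. The interval chr6:120363357-120364436 was 1080 bp wide, wider than 92.8% of promoter peaks. It ran from 767 bp upstream to 312 bp downstream of the principal TSS and covered 313 bp of exon 1, with no coding sequence. Of the 8 TSSs of *Kdm5a*, 2 lay inside the peak and 1 more lay 22 bp outside it. This was the only member whose peak held more than 1 of its own starts. A TSS of *Ccdc77*, which encodes a coiled-coil protein, also lay inside it at position 120364356 on the opposite strand.

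The *Kdm5a* peak differed in composition from the other promoter peaks of the group. Its GC content of 53.7% was higher than in only 18.1% of promoter peaks, whereas its CpG ratio of 0.926, with 72 CpG dinucleotides, was higher than in 79.7%. Its central 300 bp held 2 CCAAT boxes and none of the other 6 motifs. CCAAT occurred in 32.1% of promoter peaks, 35.8% of other peaks and 37.4% of RefSeq promoters, so that this match separates no class. The next peak was 225849 bp away.

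The paralog *Kdm5b* (ENSMUSG00000042207, chr1:134560171-134635285, plus strand) encodes a second demethylase of trimethylated H3K4 and had no peak near any of its 6 TSSs. The closest interval, chr1:134415032-134415425, lay 144746 bp away over a TSS of *Adipor1*, which encodes an adiponectin receptor. On the other side, the first peak lay over a TSS of *Ppp1r12b*, which encodes a myosin phosphatase subunit, 320521 bp past the end of *Kdm5b*. *Klhl12*, *Rabif*, *Mgat4e* and *Syt2* shared this peak-free stretch of 540380 bp. The distance exceeded the median of 103232 bp (quartiles 35304 and 344134 bp) over protein-coding genes without a promoter peak, and 57.8% of those genes had a closer peak. The *Kdm5b* promoter was nevertheless in the top quintile of genes by CpG ratio, at 0.824, with a GC content of 60%.

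Of the CoREST genes, *Rcor3* (ENSMUSG00000037395, chr1:192098546-192138062, minus strand) had a promoter peak at chr1:192138162-192138454. The interval was 293 bp wide, wider than 13.6% of promoter peaks, and lay 235 to 527 bp upstream of the principal TSS. It ended 100 bp short of the outermost TSS and overlapped no transcript of the gene, although 9 of the 13 TSSs lay 100 to 502 bp from it. A TSS of any gene was overlapped by 69.5% of promoter peaks, and the *Rcor3* interval was among the rest, beside the starts and not over them. No TSS of another coding gene lay within 3000 bp, but the antisense RNA gene *Gm10516* had a TSS 817 bp away.

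The *Rcor3* peak was the most GC-rich of the group at 74.06%, above 93.3% of promoter peaks, and had a CpG ratio of 0.821 with 31 CpG dinucleotides. It held 3 GC boxes and 1 ETS core, a motif present in 22.6% of promoter peaks, 5.24% of other peaks and 14.9% of RefSeq promoters. Both narrow promoter peaks, those of *Kdm1b* and *Rcor3*, therefore carried several GC boxes, and so did the promoter of *Rcor1*, which had no peak. The RefSeq promoters of the other members without a promoter peak held fewer: 0 at *Kdm1a*, 1 at *Kdm5b* and 1 at *Rcor2*.

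*Rcor1* (ENSMUSG00000037896, chr12:111039351-111115901, plus strand) encodes CoREST itself and had no peak at its 2 TSSs or in its body. The RefSeq promoter of *Rcor1* held 6 GC boxes and 1 CCAAT box, the same number of GC boxes as the *Kdm1b* peak, and the 1000 bp around its principal TSS had a GC content of 74.4%, above 98.7% of protein-coding genes. The interval closest to a TSS of the gene, chr12:110991696-110992855, was 1160 bp wide and lay 46496 bp upstream, 1543 bp from a TSS of *6030440G07Rik*. An interval of 575 bp was closer to the gene span, 27414 bp past the 3′ end, and the nearest coding gene to it was *Traf3*, an adaptor of tumour necrosis factor receptors. No other protein-coding gene lay between these intervals. Peaks were frequent around *Rcor1*, with 14 within 500 kb of its principal TSS against a median of 4 over protein-coding genes.

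*Rcor2* (ENSMUSG00000024968, chr19:7267325-7275225, plus strand), a CoREST paralog, had none at its 4 TSSs. The closest peak, chr19:7205780-7206262, lay 61063 bp away over a TSS of the deubiquitinase gene *Otub1*. On the other side a peak of 1239 bp over a TSS of the kinase gene *Mark2* lay 65709 bp past the end of *Rcor2*. *Cox8a* and *Naa40* were the coding genes between them. Of protein-coding genes without a promoter peak, 37.1% had a closer peak than *Rcor2* and 30.8% a closer peak than *Rcor1*. Both genes were therefore nearer to a peak than the median gene of that kind, whereas *Kdm5b* was farther.

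**Figure D2:**
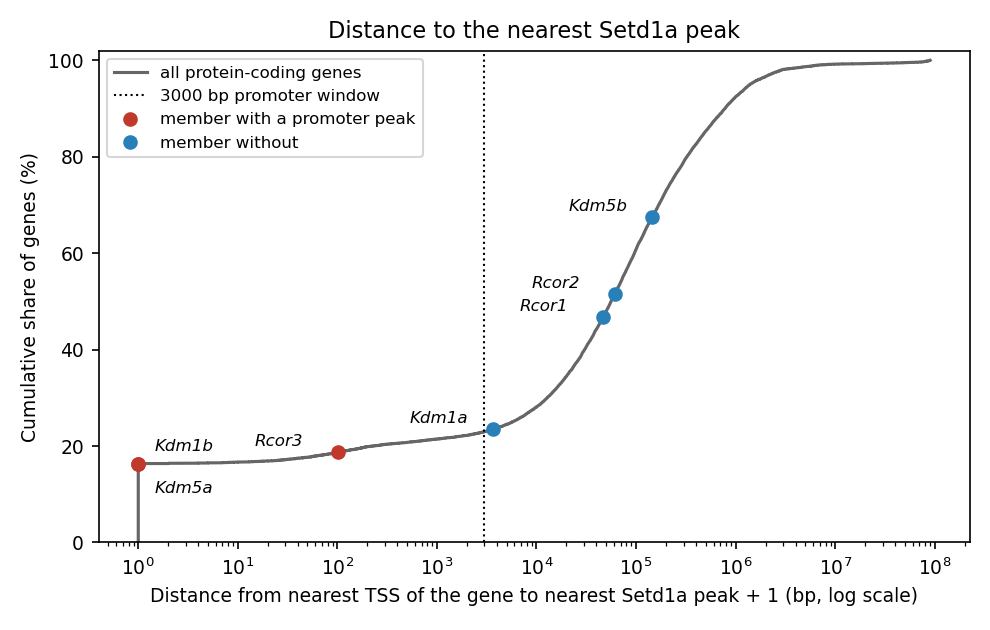
Cumulative share of the 21938 protein-coding genes (%) against the distance in bp, plus 1, from the nearest TSS of the gene to the nearest Setd1a peak, on a log axis; points are the 7 genes and the dotted line is the 3000 bp window. *Kdm1b* and *Kdm5a* are at 0 bp, *Rcor3* at 100 bp and *Kdm1a* just outside the window at 3663 bp, while *Rcor1*, *Rcor2* and *Kdm5b* are at 46496 to 144746 bp.

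All 7 genes had CpG-rich promoters, and the share of genes with a promoter peak rose with CpG content. By quintile of the CpG ratio around the principal TSS, this share was 2.39%, 6.68%, 19.7%, 37.8% and 48.2% (95% Wilson interval 46.7% to 49.7% in the top quintile). *Kdm1a*, *Kdm5a*, *Kdm5b*, *Rcor1* and *Rcor3* were in the top quintile, where 2 of the 5 had a promoter peak. *Kdm1b* and *Rcor2* were in the fourth, where 1 of the 2 had a peak. With 5 and 2 members in these quintiles, 1 gene moves a share by much, so no closeness to the other genes is read from them. Because all members were in these quintiles, the difference from the 23.0% over all genes is not a result about these genes. The 7 genes also had 2 to 13 TSSs each, and genes with more TSSs were more often near a peak, from 9.42% with 1 TSS to 44.8% with 10 or more.

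**Figure D3:**
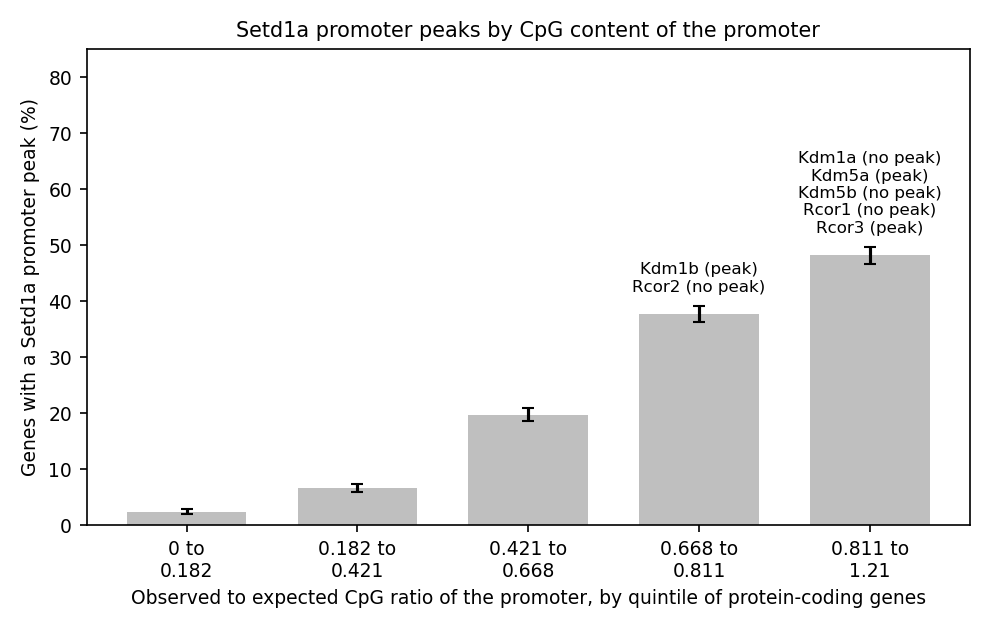
Share of protein-coding genes with a Setd1a promoter peak (%) by quintile of the observed to expected CpG ratio in the 1000 bp around the principal TSS; bars are shares, whiskers are 95% Wilson intervals over genes, and names give the members in each quintile. The share rises from 2.39% to 48.2%, and members with and without a peak stand together in the upper quintiles.

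The members' promoter peaks were 265, 293 and 1080 bp wide. The median over all promoter peaks was 507 bp (quartiles 354 and 741 bp), so *Kdm1b* and *Rcor3* were below the lower quartile and *Kdm5a* above the upper one. Of all promoter peaks, 15% were narrower than 300 bp, as were those of *Kdm1b* and *Rcor3*. With a minimum width of 300 bp only *Kdm5a* kept its promoter peak among the members. At both genes where the peak held the TSS, *Kdm1b* and *Kdm5a*, it also held the TSS of a coding gene on the opposite strand. Of the 4889 promoter peaks, 3398 held a TSS of any gene. TSSs of at least 2 coding genes lay in 398, or 8.14% of the 4889, so the share among peaks that held a TSS is higher.

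**Figure D4:**
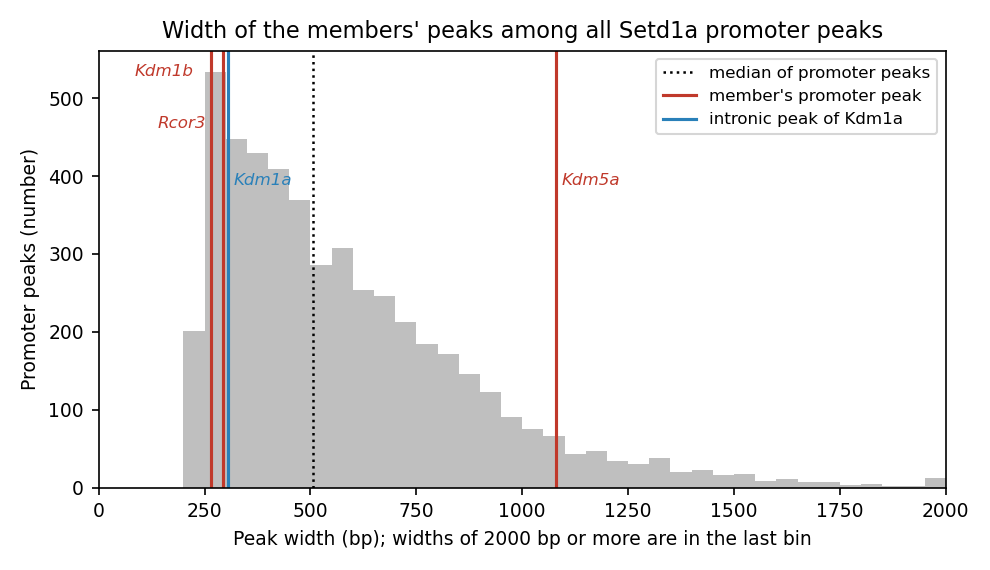
Number of Setd1a promoter peaks by width in bp (bins of 50 bp, with widths of 2000 bp or more in the last bin); red lines are the members' promoter peaks, the blue line is the intronic peak of *Kdm1a* and the dotted line is the median. *Kdm1b* (265 bp) and *Rcor3* (293 bp) are at the narrow edge and *Kdm5a* (1080 bp) is in the wide tail.

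The wider set of genes around these enzymes was also split. Among 13 genes for LSD1-CoREST partners, 5 had a promoter peak: the deacetylase gene *Hdac2*, the complex subunit genes *Phf21a*, *Zmym2* and *Hmg20b*, and the corepressor gene *Ctbp1*. The 8 without one were *Hdac1*, *Zmym3* and the transcription factor genes that recruit the complex, *Gfi1*, *Gfi1b*, *Insm1*, *Rest*, *Snai1* and *Rreb1*. The nearest peak to *Rest* was 43397 bp from its TSSs. *Hdac2* had a peak of 869 bp over a TSS, whereas its paralog *Hdac1* was 55309 bp from the nearest peak.

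Of 15 other JmjC demethylase genes, 7 had a promoter peak. These were *Kdm2b*, *Kdm3a*, *Jmjd1c*, *Kdm4a*, *Kdm4b*, *Kdm4c* and *Kdm6b*, whose products act mainly on lysines of H3 other than H3K4, save Kdm2b, a subunit of a Polycomb complex for which H3K4 has also been named as a substrate. The 8 without one were *Kdm2a*, *Kdm3b*, *Kdm4d*, *Kdm6a*, *Uty*, *Kdm7a*, *Phf8* and *Phf2*. The sex-linked *Kdm5c* and *Kdm5d* and the monoamine oxidase genes *Maoa* and *Maob*, whose products are flavin enzymes related to LSD1, had none. Chromosome X as a whole had few, with a promoter peak at 2.64% of its protein-coding genes against 24.1% on the autosomes. Chromosome Y, which carries *Kdm5d* and *Uty*, held only 1 peak of the list.

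Over the 32 related genes, 12 had a promoter peak, or 37.5%, beside 23.0% of all protein-coding genes and 42.9% of the 7 members. Most of the related genes had promoters in the fourth or top CpG quintile, where the share over all genes was 37.8% and 48.2%. The genes with a promoter peak were not confined to these quintiles. *Phf21a* and *Kdm6b* were in the lowest, *Zmym2* and *Kdm4c* in the second and *Kdm2b* and *Kdm4a* in the third. Over all genes the share there was 2.39%, 6.68% and 19.7%. CpG content at the principal TSS thus did not separate the related genes with a peak from those without. The difference from 23.0% was not tested and is not read as a result about these genes. All 12 were among the 24 autosomal genes of these lists. The widths of their peaks ran from 312 to 869 bp, and the median was 597 bp. Each was wider than the peaks of *Kdm1b* and *Rcor3* and narrower than that of *Kdm5a*. The lists were chosen and not sampled, so no test was made of these counts.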

How the data were processed

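The authors prepared CUT & RUN libraries with a kit, trimmed reads (Trimmomatic 0.32), mapped them to mm10 (Bowtie2 2.1.0), processed alignments (SAMtools 0.1.18), called peaks per Setd1a replicate (MACS2 2.2.8, default parameters) and deposited the intersection of both replicates. Versions are from the submitters' processing notes. The deposited values are chromosome, start and end in bp, with no signal, score or replicate column. By which coordinate rule intervals were intersected, and whether IgG served as control, is not given in the sources used here.

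Intervals were set against GENCODE M21 TSSs on GRCm38 with Python 3.11.15, numpy 2.4.6, scipy 1.17.1, pysam 0.24.0, samtools 1.23.1 and matplotlib 3.10.9. Distance ran from the nearer peak edge to the nearest TSS of any transcript, and a peak counted for every gene with a TSS within 3000 bp. The principal TSS was that of the 5′-most APPRIS principal transcript. CpG ratios were computed over 500 bp on each side of it. Motifs were searched in the central 300 bp of peaks. On simulated data 400 of 400 intervals were classed as placed. No test was possible on 1 joined list. The members, related lists and motifs were chosen with earlier results of these data known, and all members and related genes are named, save 1 related gene that is not reported here and is in no count of the related lists. Alternatives covered windows, TSS sets, peak width, merging and assignment.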

Additional observations from a re-analysis of the deposited data

How the results depend on the processing

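No paired analysis was possible because the deposited list joins both replicates and has no column for either, and for the same reason no replicate could be left out. Of 58 comparisons with an alternative, 46 left a count within 1.5 times its value or a median equal, and 12 went past these limits. Counts, medians and distances have no direction, so a reversal was not possible. With peaks of at least 300 bp, 1 member had a promoter peak, the median width of members' promoter peaks was 1080 bp against 293 bp, their median GC content 53.7% against 71.7%, and the median distance of members without a promoter peak 42926 bp against 53780 bp. With a 5000 bp window, 4 members had a promoter peak (*Kdm1a* added) and 0 a gene-body peak outside it, and these medians were 299.5 bp, 62.7% and 61063 bp. With each peak given to its nearest TSS, 2 members had a promoter peak (*Kdm1b* lost), with a median width of 686.5 bp and GC content of 63.88%. The median distance was 54256 bp with GENCODE basic TSSs and 44238 bp from the gene span. Protein-coding genes with a promoter peak numbered 3999 to 5376 and related genes 11 to 13. With 5′ ends of RefSeq gene spans, an alternative chosen after seeing the data, 3 members had one. The medians of width and GC content rest on 1 to 4 peaks each, and depth is unknown.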
